A study of Mus musculus with 14 samples.

Results

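The data on 34 genes for lysosomal enzymes and acidification are described here, chosen by name and matched on the gene symbol in both deposited tables. All 34 were found, among 14330 genes in the glycerol table and 56953 genes in the BaCl2 table, and all 34 passed the filter on low values. They comprise 7 cysteine cathepsins, legumain, the cathepsins A and D, the peptidase TPP1, 2 membrane glycoproteins, 5 lipid enzymes and carriers, 8 glycan hydrolases, progranulin, the channel mucolipin 1, the Batten disease protein CLN3, TFEB itself and 4 V-ATPase subunits. The RNA came from fibro-adipogenic progenitors (FAPs), stromal cells of the muscle interstitium from which fat and fibrous tissue can form. They had been isolated by magnetic sorting (MACS) from the TA muscle (read here as tibialis anterior) of mice 3 days after an injury. The 4 groups were SMA mice (the letters are taken here for spinal muscular atrophy, a motor neuron disease) after glycerol (4 libraries), WT mice after glycerol (4 libraries), SMA mice after BaCl2 (3 libraries) and WT mice after BaCl2 (3 libraries). Both agents kill muscle fibres, and glycerol is known for the fat that follows it. The labels name neither the SMA allele, the age of the mice nor the antibodies of the sort, and they do not say whether libraries came from separate animals or from pools, so each p-value here reflects spread between samples that may be no more than technical. The 2 injuries were deposited and normalized separately, so injury cannot be told apart from any batch.

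The lysosome is the acidic compartment in which a cell breaks down proteins, lipids and glycans taken in from outside or delivered by autophagy. A proton pump, the V-ATPase, acidifies it, soluble acid hydrolases do the cutting, and heavily glycosylated membrane proteins line its inner face. The transcription factor TFEB raises many of the genes for these parts together, by binding a short palindromic DNA element near their start sites. In muscle stroma, secreted and lysosomal cathepsins also cut collagen and other matrix proteins, and macrophages, which clear dead fibres after injury, are rich in the same enzymes.

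Library totals were 97.7 M to 136 M counts after BaCl2 (M, mega), and the glycerol values, normalized by the authors before deposit, summed to 71.4 M to 76.6 M per library with an unknown depth. Levels after BaCl2 are CPM, counts per M of a library after TMM scaling. Smn1, which encodes the survival motor neuron protein, averaged 745 normalized counts in SMA and 1084 normalized counts in WT libraries after glycerol (log2 fold change -0.54, limma adjusted p = 0.0364), and 11.1 CPM (SMA) and 16.1 CPM (WT) after BaCl2 (-0.54, edgeR adjusted p = 0.0131). The FAP marker Pdgfra was high in all groups, with mean values of 65843 normalized counts in SMA and 70522 normalized counts in WT libraries after glycerol, and 868 CPM (SMA) and 895 CPM (WT) after BaCl2. Transcripts of other cells were present as well. The summed level of 20 macrophage markers was 131654 to 314145 normalized counts in SMA and 113208 to 145028 in WT libraries after glycerol, and 2201 to 3276 CPM (SMA) and 1216 to 1692 CPM (WT) after BaCl2. The macrophage markers that passed as higher numbered 7 of 20 after glycerol and 18 of 20 after BaCl2, and none of the 20 was at 0 in every BaCl2 library. Summed FAP markers were 3337950 to 4202740 normalized counts in SMA and 3316110 to 4697630 in WT libraries after glycerol (0 of 14 passed), and 41011 to 54214 CPM (SMA) and 61243 to 67859 CPM (WT) after BaCl2 (0 of 14 higher, 5 lower). Most of the BaCl2 sum was Col1a1 (mean 20786 CPM across SMA, 29119 CPM across WT libraries) and Col3a1 (21282 and 29944 CPM). The 9 that did not pass after BaCl2 included Col1a1 (log2 fold change -0.49), Thy1 (-0.36), Pdgfrb (-0.31) and Dcn (-0.23). The others were Cd34 (-0.07), Osr1 (-0.05), Pdgfra (-0.04), Dpp4 (0.0028) and Pi16 (0.45). Of the 14 FAP markers, 12 had a negative and 2 a positive log2 fold change after BaCl2, with a median of -0.32. Of the other cell types, endothelial markers summed to 8531 to 11134 normalized counts (SMA) and 14292 to 20898 (WT) after glycerol, with 4 of 10 passing as lower. After BaCl2 they summed to 245 to 340 CPM (SMA) and 136 to 318 CPM (WT), with 0 of 10 passing. Neutrophil markers summed to 1053 to 1623 normalized counts (SMA) and 566 to 990 (WT) after glycerol, most of it Csf3r, the 1 of 6 that passed (log2 fold change 1.21). After BaCl2 neutrophil markers summed to 13.5 to 25.5 CPM (SMA) and 7.27 to 9.55 CPM (WT), again with Csf3r alone passing (1.16), and Schwann cell markers to 39.6 to 44.4 CPM (SMA) and 24.7 to 30.3 CPM (WT). Myogenic markers summed to 276 to 301 CPM (SMA) and 380 to 439 CPM (WT), most of it Vcam1 (mean 256 CPM across SMA, 355 CPM across WT libraries), which is also on the FAP list. By log2 fold change, Vcam1 (-0.47) and Des (-0.74) passed as lower. Myod1 (0.60), Myog (0.97), Cdh15 (0.27), Chrna1 (0.47) and Mymk (-0.56), at under 1 CPM each, did not pass. Msc (-0.59, mean 4.14 CPM across SMA, 6.26 CPM across WT libraries) did not pass either. Of the 8 myogenic markers tested, 4 were positive and 4 negative. These single markers were picked out after their values were seen. The part of these cells in the results below was not tested. In bulk samples such as these, fewer cells of a type and less RNA per cell cannot be told apart.

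One glycerol library stood apart. SMA library 3 gave the lowest SMA value for 32 of the 34 lysosomal genes, and 15 of the 34 lay above their WT mean in it, against 33, 34 and 33 in SMA libraries 1, 2 and 4. The median deviation from the WT mean over the 34 genes was -0.006 on the log2 scale in SMA library 3, and 0.29, 0.43 and 0.54 in SMA libraries 1, 2 and 4. The macrophage sum of SMA library 3 was 131654 normalized counts, inside the WT range, against 228737 to 314145 in the other SMA libraries. Results after glycerol are therefore also given without it. It was singled out after its values for these same genes were seen. Leaving it out raises the SMA mean of those 32 genes by construction, so results without it are no separate support.

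TFEB's element (the CLEAR element, whose core is the palindrome CACGTG) was searched in the promoters of the lysosomal genes, which many lysosomal genes are known to carry. RefSeq promoter windows of build GRCm38.p6, which span each start site and lie mostly upstream of it, were at hand for 27 of the 34 genes. The 7 bases TCACGTG, read on both strands (CACGTGA on the other), occurred in 11 of these 27 genes (40.7%), which were Atp6v1a, Cln3, Ctsa, Ctsd, Gaa, Gla, Glb1, Lamp1, Lgmn, Mcoln1 and Naglu. Of all 27025 genes with a window, 4.29% held it, and 3.77% of the windows. The inner CACGTG, contained in it, occurred in 12 of the 27 (44.4%), Ctsl being the addition, and in 8.09% of all genes. Ctsb, Ctsh, Galns, Asah1, Atp6v0d2, Atp6v1b2 and Atp6v1h had no window and were not searched. These are letter matches in fixed windows, not sites shown to be bound.

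The 4 windows shown are those of Lgmn, Cln3 and Ctsd, which rose after BaCl2, and of Ctsa, and capitals mark TCACGTG or CACGTGA (overlapping matches run together). Lgmn, Cln3 and Ctsa each have 2 windows, of which the one with a match is shown. Lgmn lies at chr12:102439043-102439342 (minus strand), Cln3 at chr7:126583187-126583486 (minus), Ctsd at chr7:142387778-142388077 (minus) and Ctsa at chr2:164833523-164833822 (plus strand), all written 5′ to 3′ on the strand of the gene.
Lgmn: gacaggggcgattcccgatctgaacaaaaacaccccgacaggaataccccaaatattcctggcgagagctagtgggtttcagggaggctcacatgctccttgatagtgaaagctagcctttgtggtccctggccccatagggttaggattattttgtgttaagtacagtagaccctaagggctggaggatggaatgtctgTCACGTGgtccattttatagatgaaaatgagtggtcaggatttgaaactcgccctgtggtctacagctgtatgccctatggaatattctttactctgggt
Cln3: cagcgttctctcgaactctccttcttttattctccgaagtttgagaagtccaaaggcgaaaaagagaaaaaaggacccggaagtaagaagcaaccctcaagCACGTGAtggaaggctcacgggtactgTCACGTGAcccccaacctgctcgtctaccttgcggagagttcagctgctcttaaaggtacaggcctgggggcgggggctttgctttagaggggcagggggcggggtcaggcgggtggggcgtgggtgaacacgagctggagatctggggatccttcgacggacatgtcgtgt
Ctsd: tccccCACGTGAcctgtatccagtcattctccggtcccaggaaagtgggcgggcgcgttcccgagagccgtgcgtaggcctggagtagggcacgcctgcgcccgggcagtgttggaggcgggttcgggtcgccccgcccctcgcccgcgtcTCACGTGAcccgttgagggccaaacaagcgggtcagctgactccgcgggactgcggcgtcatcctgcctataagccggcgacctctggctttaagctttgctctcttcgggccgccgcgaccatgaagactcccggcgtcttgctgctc
Ctsa: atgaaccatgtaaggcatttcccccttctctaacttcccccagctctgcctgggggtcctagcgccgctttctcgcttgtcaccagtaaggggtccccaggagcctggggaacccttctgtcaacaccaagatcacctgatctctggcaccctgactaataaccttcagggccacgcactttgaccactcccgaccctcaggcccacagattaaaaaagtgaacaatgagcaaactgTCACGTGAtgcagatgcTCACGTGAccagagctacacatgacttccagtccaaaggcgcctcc
Counted from the start site, with upstream bases negative, the match begins at -50 in Lgmn, at -149 and -122 in Cln3, at -245 and -99 in Ctsd, and at -13 and 4 in Ctsa. Ctsa has 2 fully palindromic copies across its start site, and Cln3 and Ctsd have 1 full and 1 partial copy each.

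After glycerol, nearly all of the lysosomal genes stood higher in SMA than in WT FAPs, but 1 of them passed the test. The log2 fold change was positive for 33 of 34 and negative for 1 (Ctsk, -0.006), with a median of 0.31 against -2.0e-05 over all 14330 genes. By limma on log2(value + 1), a gene passing at a Benjamini-Hochberg adjusted p under 0.05 over all genes, 1 was higher (Ctss), 0 were lower and 33 did not pass, where 1.7% of all genes were called higher and 1.17% lower. At an unadjusted p under 0.05, 24 were higher and 0 lower (12.3% and 11% of all genes). Every SMA library lay above every WT library for 5 genes (Ctss, Lamp2, Npc2, Neu1 and Grn) and below for 0, where 6.59% of all genes were separated upward and 7.54% downward. Without SMA library 3, which was singled out on these same values, 25 of 34 were higher and 0 lower (7.54% and 3.94% of all genes). The median was then 0.41, and 30 of 34 were separated upward (14.4% of all genes). The 9 that did not pass even then were Ctsh, Ctsk, Lamp2, Gusb, Gaa, Glb1, Asah1, Mcoln1 and Atp6v1h. Without each of the other 7 libraries in turn, 0 passed, where those fits called between 0 and 62 of all 14330 genes higher and between 0 and 20 lower, against 243 and 168 with every library. All 20 macrophage markers passed as higher without SMA library 3, and their part in these results was not tested.

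After BaCl2, the genes split. Ctss, Ctsc, Ctsb, Lgmn, Ctsd, Cln3, Psap and Tpp1 rose in SMA FAPs, 8 of 34, while the cathepsins Ctsk and Ctsh fell, and 24 did not pass. By edgeR's quasi-likelihood test over 20119 genes, 2.73% of all genes were called higher and 1.56% lower. The log2 fold change was positive for 23 and negative for 11, with a median of 0.11 against -0.0028 over all genes. At an unadjusted p under 0.05, 16 were higher and 5 lower (9.67% and 9.58% of all genes). Every SMA library lay above every WT library for 13 genes and below for 6, where 12.2% of all genes were separated upward and 13.1% downward. Leaving out SMA library 1, 2 or 3 gave 6, 2 or 15 higher genes and 1, 0 or 3 lower genes, where the same fits called 394, 106 or 902 of all genes higher and 165, 39 or 675 lower, against 549 and 314 with every library. Leaving out WT library 1, 2 or 3 gave 6, 2 or 1 higher genes and 2, 0 or 0 lower genes, where 474, 127 or 34 of all genes were higher and 189, 36 or 7 lower. The macrophage sum differed between the genotypes here too (2201 to 3276 CPM across SMA libraries, against 1216 to 1692 CPM across WT libraries), and its part in these results was not tested.

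**Figure D1:**
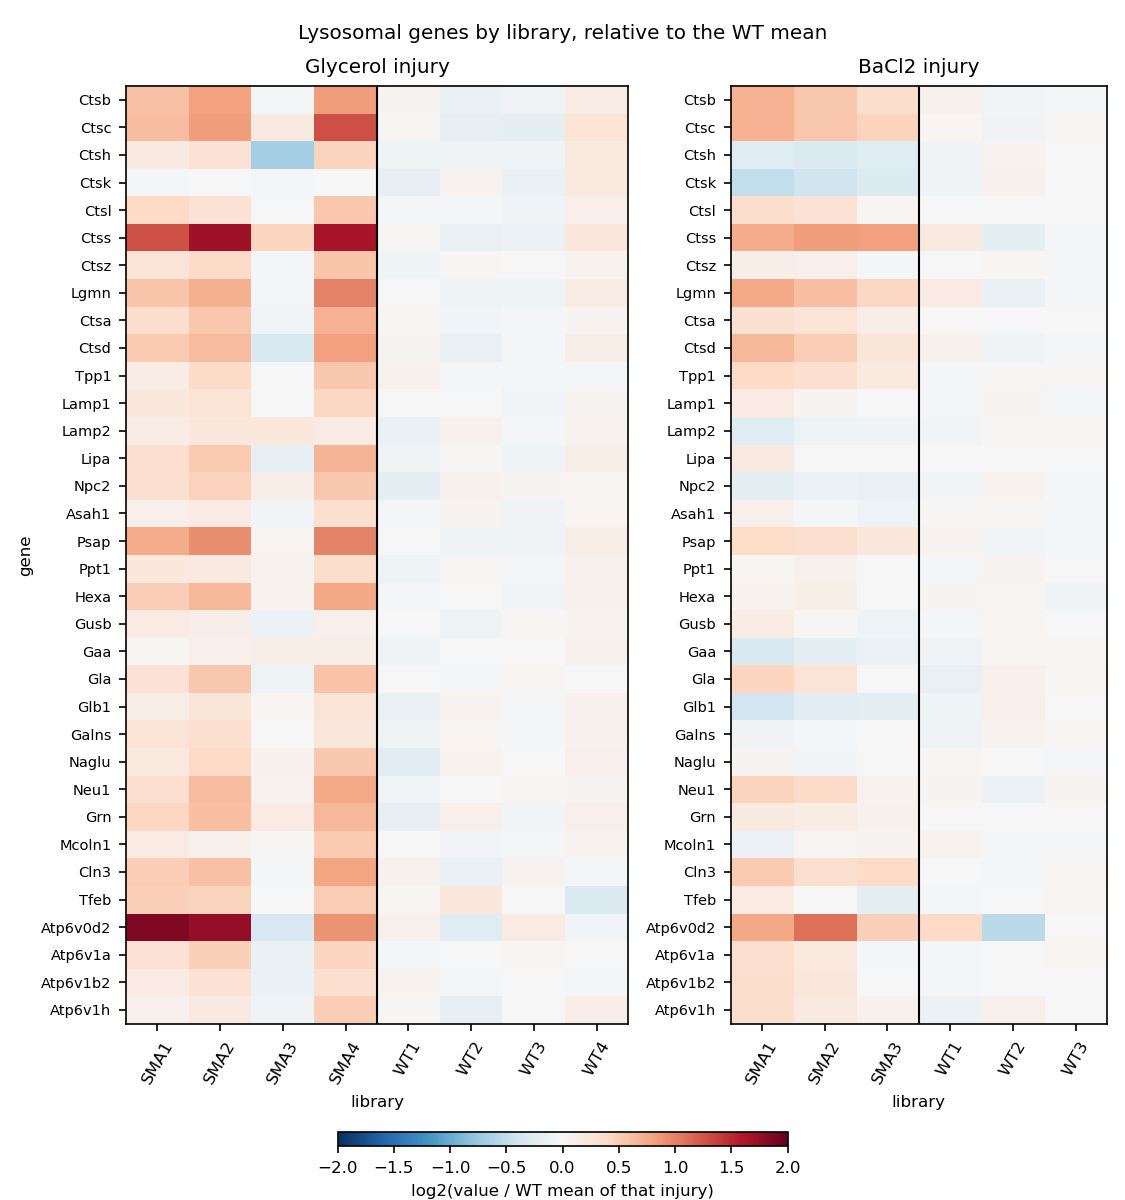
Level of each of the 34 lysosomal genes in each library as log2 of its value over the WT mean of the same injury (red, above the WT mean; blue, below), SMA libraries left of WT libraries, glycerol left of BaCl2, with genes ordered by role. After glycerol, SMA library 3 is near the WT mean (median -0.006) while the other 3 SMA libraries are above it (0.29 to 0.54), and after BaCl2 Ctsk and Ctsh are below it in all 3 SMA libraries.

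In terms of amount, the 34 genes together came to 1142380, 1272218, 813831 and 1356440 normalized counts in the SMA libraries, against 808320.2, 791464, 789151 and 881882 in the WT libraries after glycerol, a ratio of means of 1.40. After BaCl2 they came to 11527, 10979 and 10131 CPM in the SMA libraries, against 9407, 9176 and 9161 CPM in the WT libraries, a ratio of 1.18. The BaCl2 groups did not overlap, and after glycerol SMA library 3 fell inside the WT range. Across libraries the sum stood highest where the macrophage sum stood highest, SMA library 4 after glycerol and SMA library 1 after BaCl2.

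**Figure D2:**
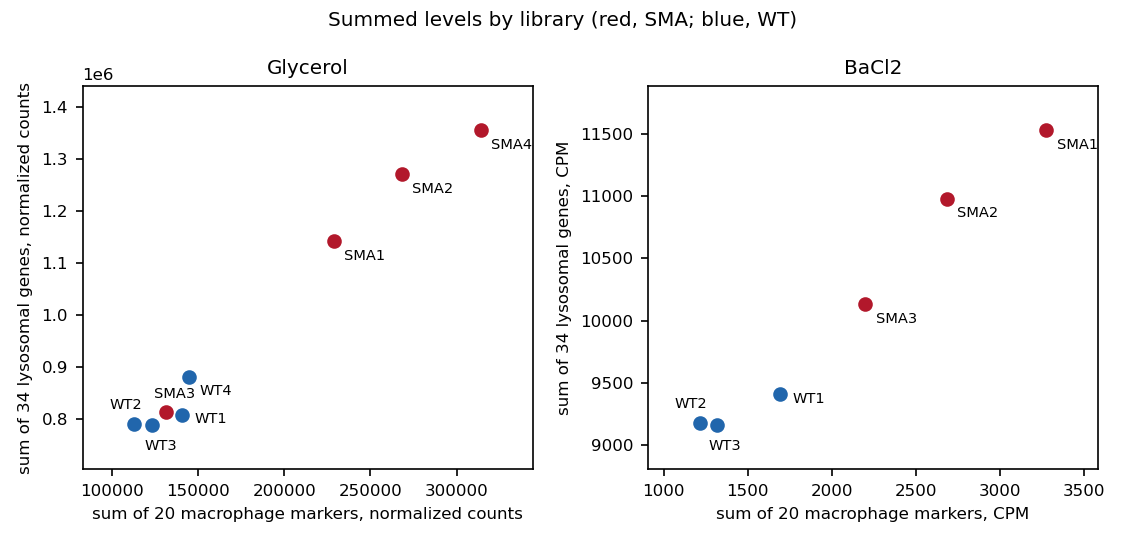
Sum over the 34 lysosomal genes (vertical axis) against the sum over 20 macrophage markers (horizontal axis) in each library, in normalized counts after glycerol (left) and in CPM after BaCl2 (right), with neither axis starting at 0; red, SMA; blue, WT. SMA library 3 after glycerol (131654 normalized counts of macrophage markers) lies among the WT libraries, and the other SMA libraries lie above and to the right of them.

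Per kb of exon (union of GENCODE vM21 exons), which allows levels of different genes to be compared, Psap led with 778 ± 44.7 CPM per kb in SMA and 631 ± 25.3 in WT libraries after BaCl2 (SD, n = 3 each). Ctsb came next with 435 ± 53.1 CPM per kb in SMA and 300.2 ± 15.7 in WT libraries. In WT libraries Lamp1 (214 ± 7.33 CPM per kb), Grn (210.04 ± 0.206) and Ctsz (200.1 ± 5.58) followed. The lowest were Cln3 (3.604 ± 0.0925 CPM per kb), Tfeb (2.43 ± 0.0441) and Atp6v0d2 (0.753 ± 0.235). The same 3 were the lowest in the WT libraries after glycerol, where Psap, Ctsd and Ctsb led.

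Of the 7 cysteine cathepsins, the papain-like proteases of the lysosome, 1 passed after glycerol (Ctss, higher), and after BaCl2 3 rose (Ctss, Ctsc and Ctsb), 2 fell (Ctsk and Ctsh) and 2 did not pass. Ctss (ENSMUSG00000038642), the protease of antigen-presenting cells that trims the invariant chain of MHC class II, was the 1 gene of the 34 to pass after both injuries, as did 0.609% of the 13960 genes tested in both. The glycerol values were 40788, 54840.2, 22785 and 52753 normalized counts in the SMA libraries, against 17199, 15203, 15578 and 19440.3 normalized counts in the WT libraries, a log2 fold change of 1.27 (SE 0.25, limma adjusted p = 0.0372). Every SMA library lay above every WT library, with SMA library 3 nearest to them. Without SMA library 3 the log2 fold change was 1.55 (limma adjusted p = 0.000373), and without each other library it did not pass (adjusted p up to 0.116). After BaCl2 it had 269, 289 and 284 CPM in the SMA libraries, against 183, 143 and 158 CPM in the WT libraries, a log2 fold change of 0.80 (SE 0.09, edgeR adjusted p = 0.00376), again with no overlap. It passed with each BaCl2 library left out in turn (adjusted p up to 0.0456).

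Ctsc (ENSMUSG00000030560), dipeptidyl peptidase I, which activates the granule proteases of leukocytes, had 181, 163 and 152 CPM in the SMA libraries, against 116, 107 and 114 CPM in the WT libraries after BaCl2, a log2 fold change of 0.56 (SE 0.07, edgeR adjusted p = 0.00597). It lost its call without WT library 3 (adjusted p = 0.0555). After glycerol Ctsc had 13239.6, 15414, 9736 and 21084 normalized counts in the SMA libraries, against 8762, 7672, 7601 and 10330.1 normalized counts in the WT libraries. The SMA libraries other than library 3 were above all WT libraries, and the log2 fold change was 0.75 (SE 0.21, limma adjusted p = 0.0815), or 0.93 (limma adjusted p = 0.00861) without SMA library 3. Ctsb (ENSMUSG00000021939), cathepsin B, an abundant endo- and carboxypeptidase, had 2313, 2068 and 1809 CPM in the SMA libraries, against 1509, 1372 and 1390.3 CPM in the WT libraries after BaCl2, a log2 fold change of 0.54 (SE 0.09, edgeR adjusted p = 0.0123). All 3 SMA libraries were higher, and the call was lost once SMA library 2 or WT library 2 or 3 was left out (adjusted p up to 0.0812). After glycerol Ctsb had 203304, 235580, 131155 and 241498 normalized counts in the SMA libraries, against 139951, 123280, 128244 and 149082 normalized counts in the WT libraries. SMA library 3 was inside the WT range, and the log2 fold change was 0.55 (SE 0.18, limma adjusted p = 0.113), or 0.75 (limma adjusted p = 0.00156) without it. Ctsb shares 16.3% of its exon bases with Fdft1 on the opposite strand, and whether the counting used strand is not stated, so its level is uncertain to that extent.

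Ctsk (ENSMUSG00000028111), cathepsin K, the collagen-cutting protease of osteoclasts that fibroblasts also express, went the other way after BaCl2. It had 165, 176 and 193 CPM in the SMA libraries, against 220.03, 245 and 231 CPM in the WT libraries, a log2 fold change of -0.38 (SE 0.07, edgeR adjusted p = 0.0188). All SMA libraries were below all WT libraries, and the call was lost once SMA library 2 or WT library 2 or 3 was left out (adjusted p up to 0.099). In the glycerol libraries it had 14346, 14618, 14180.4 and 14391 normalized counts in the SMA libraries, against 13014, 15252, 13233 and 16568 normalized counts in the WT libraries, a log2 fold change of -0.006 (SE 0.08, limma adjusted p = 0.975), or 0.00077 without SMA library 3. The SMA libraries were inside the WT range. The summed level of 9 osteoclast markers was 224 to 263 CPM (SMA) and 227 to 272 CPM (WT) after BaCl2, most of it Nfatc1 (mean 156 CPM across SMA, 137 CPM across WT libraries, not passing), while Tnfrsf11a was higher (log2 fold change 0.96, edgeR adjusted p = 0.00959) and Mmp9 lower (-0.51, edgeR adjusted p = 0.0264). Ctsh (ENSMUSG00000032359), cathepsin H, an aminopeptidase, had 217, 213 and 219 CPM in the SMA libraries, against 245, 269 and 259 CPM in the WT libraries after BaCl2, a log2 fold change of -0.25 (SE 0.06, edgeR adjusted p = 0.0373). All SMA libraries were lower, and the call was lost once SMA library 1 or 2 or WT library 2 or 3 was left out (adjusted p up to 0.164). After glycerol Ctsh had 19225, 20593, 10567 and 22939 normalized counts in the SMA libraries, against 16011, 16164, 16022 and 19446 normalized counts in the WT libraries. SMA library 3 was the lowest of the 8 and SMA library 1 lay below WT library 4, with a log2 fold change of 0.06 (SE 0.21, limma adjusted p = 0.89), or 0.31 (limma adjusted p = 0.0537) without SMA library 3.

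Ctsl and Ctsz did not pass after either injury. Ctsl, cathepsin L, a broad endopeptidase, had 56382, 52319, 42706 and 62089 normalized counts in the SMA libraries, against 41862, 42116, 40778 and 46059 normalized counts in the WT libraries after glycerol, a log2 fold change of 0.31 (SE 0.10, limma adjusted p = 0.123). After BaCl2 Ctsl had 668, 635 and 538 CPM in the SMA libraries, against 522, 519.9 and 522 CPM in the WT libraries, at 0.24 (SE 0.08, edgeR adjusted p = 0.133). SMA library 3 stood nearest to the WT libraries among the SMA libraries after both injuries, and the BaCl2 groups did not overlap. Ctsz, cathepsin Z, a carboxypeptidase, had 26251, 28107, 21318 and 31765 normalized counts in the SMA libraries, against 20289.6, 21896, 21511 and 22832 normalized counts in the WT libraries after glycerol, a log2 fold change of 0.30 (SE 0.11, limma adjusted p = 0.141). After BaCl2 Ctsz had 314, 309 and 282 CPM in the SMA libraries, against 291, 295 and 279 CPM in the WT libraries, at 0.06 (SE 0.06, edgeR adjusted p = 0.636), with the groups overlapping. Without SMA library 3 both were higher after glycerol, Ctsl by 0.41 (limma adjusted p = 0.00734) and Ctsz by 0.41 (limma adjusted p = 0.00899). Ctsl shares 28.2% of its exon bases with the gene model Gm47123.

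**Figure D3:**
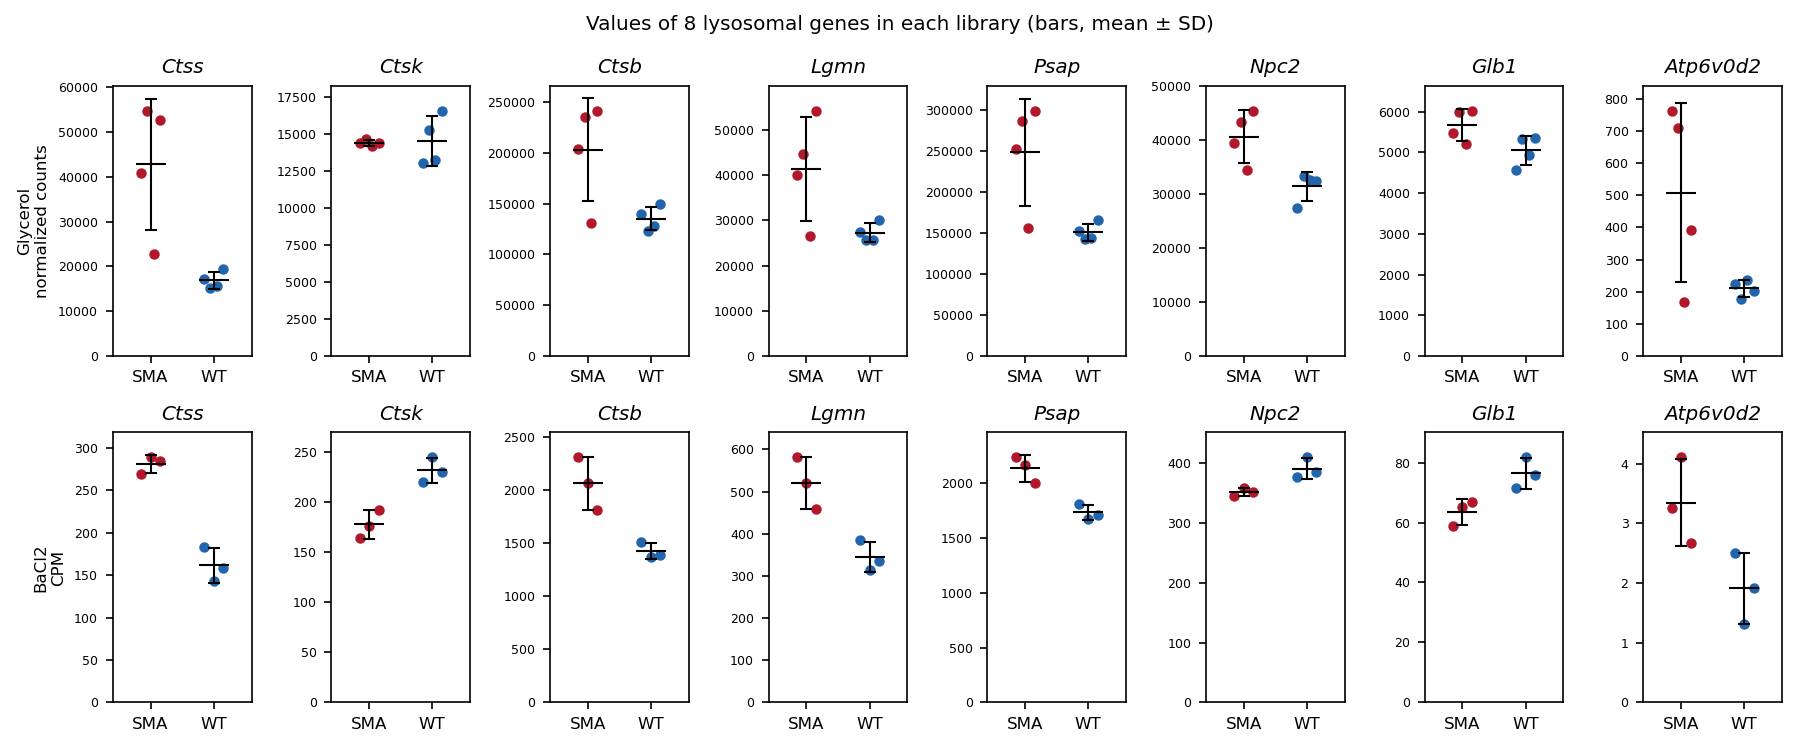
Values of 8 lysosomal genes in each library (points) with the mean and SD (bars), SMA (red) left of WT (blue), in normalized counts after glycerol (top row, n = 4 each) and in CPM after BaCl2 (bottom row, n = 3 each), all axes from 0. Ctss is higher in every SMA library after both injuries, Ctsk is lower in every SMA library after BaCl2, and after glycerol SMA library 3 is the lowest SMA point in each panel shown.

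Of the 4 remaining peptidases, 3 rose after BaCl2 (Lgmn, Ctsd and Tpp1), and 0 passed after glycerol. Lgmn (ENSMUSG00000021190), the asparaginyl endopeptidase legumain, which processes other cathepsins, had 582, 521 and 459 CPM in the SMA libraries, against 385, 315 and 335 CPM in the WT libraries after BaCl2, a log2 fold change of 0.59 (SE 0.10, edgeR adjusted p = 0.0123). All SMA libraries were higher. With glycerol it had 40083, 44744, 26592 and 54306 normalized counts in the SMA libraries, against 27439.9, 25634, 25664 and 30100.3 normalized counts in the WT libraries. SMA library 3 was inside the WT range and SMA library 4 was the highest, with a log2 fold change of 0.56 (SE 0.18, limma adjusted p = 0.116), or 0.76 (limma adjusted p = 0.0028) without SMA library 3. Ctsd (ENSMUSG00000007891), cathepsin D, the main aspartic protease of the lysosome, had 589.9, 525 and 443 CPM in the SMA libraries, against 396, 357 and 366 CPM in the WT libraries after BaCl2, a log2 fold change of 0.48 (SE 0.10, edgeR adjusted p = 0.0238), with no overlap. After glycerol it had 116344, 126407, 65981 and 144244 normalized counts in the SMA libraries, against 84251, 73257, 79866 and 87819 normalized counts in the WT libraries. SMA library 3 was the lowest of all 8, and the log2 fold change was 0.42 (SE 0.21, limma adjusted p = 0.26), or 0.66 (limma adjusted p = 0.00251) without it. Ctsd shares 31.5% of its exon bases with the gene model Gm49369 on the same strand, so the 2 cannot be told apart there.

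Tpp1 (ENSMUSG00000030894), tripeptidyl peptidase 1, lacking in a childhood form of Batten disease, had 93.0, 87.8 and 80.1 CPM in the SMA libraries, against 68.4, 71.3 and 71.2 CPM in the WT libraries after BaCl2, a log2 fold change of 0.31 (SE 0.07, edgeR adjusted p = 0.0314). The groups did not overlap. After glycerol Tpp1 had 6146, 7255, 5529 and 8044 normalized counts in the SMA libraries, against 5918, 5417, 5462 and 5422 normalized counts in the WT libraries, a log2 fold change of 0.27 (SE 0.11, limma adjusted p = 0.176), or 0.36 (limma adjusted p = 0.0344) without SMA library 3. Ctsa, the carboxypeptidase cathepsin A, which also shields beta-galactosidase and neuraminidase, had 222, 217 and 198 CPM in the SMA libraries, against 181, 179 and 179 CPM in the WT libraries after BaCl2, which were separated but did not pass, at 0.24 (SE 0.06, edgeR adjusted p = 0.0541). The glycerol values were 16811, 19101, 12644 and 21147 normalized counts in the SMA libraries, against 13321, 12664, 12901 and 13614 normalized counts in the WT libraries, a log2 fold change of 0.38 (SE 0.14, limma adjusted p = 0.138), or 0.53 (limma adjusted p = 0.00349) without SMA library 3. It shares 13.5% of its exon bases with Pltp on the opposite strand. The BaCl2 calls of Lgmn and Ctsd were lost once SMA library 2 or WT library 2 or 3 was left out (adjusted p up to 0.0828 for Lgmn and 0.125 for Ctsd), and that of Tpp1 without any one library but SMA library 3 (up to 0.127).

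Among the 5 lipid enzymes and carriers, Psap rose after BaCl2 and the other 4 did not pass, and 0 of 5 passed after glycerol. Psap (ENSMUSG00000004207), prosaposin, is the precursor of the saposins that present sphingolipids to their hydrolases. After BaCl2 it had 2237, 2165 and 1998 CPM in the SMA libraries, against 1809, 1675 and 1712 CPM in the WT libraries, a log2 fold change of 0.30 (SE 0.07, edgeR adjusted p = 0.0321), with all SMA libraries higher. In the glycerol libraries it had 251720, 286723, 155512 and 299161 normalized counts in the SMA libraries, against 152291, 142807, 143267 and 165181 normalized counts in the WT libraries, with SMA library 3 inside the WT range and the other SMA libraries far above it. The log2 fold change was 0.68 (SE 0.18, limma adjusted p = 0.0776), or 0.89 (limma adjusted p = 0.000546) without SMA library 3. The BaCl2 call was lost once SMA library 1 or 2 or WT library 2 or 3 was left out (adjusted p up to 0.136).

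Npc2 (ENSMUSG00000021242), the soluble carrier that hands cholesterol to NPC1, had 39363, 43255, 34403 and 45468 normalized counts in the SMA libraries, against 27444, 33374, 32608 and 32362 normalized counts in the WT libraries after glycerol. Every SMA library was higher than every WT library, yet the log2 fold change did not pass, at 0.37 (SE 0.10, limma adjusted p = 0.0697), or 0.44 (limma adjusted p = 0.0101) without SMA library 3. After BaCl2 Npc2 had 345, 359 and 352 CPM in the SMA libraries, against 378, 411 and 385 CPM in the WT libraries, every SMA library being lower, with a log2 fold change of -0.15 (SE 0.06, edgeR adjusted p = 0.176). Lipa (acid lipase, which frees cholesterol and fatty acids from lipoprotein lipids), Asah1 (acid ceramidase) and Ppt1 (which removes palmitate from proteins) had log2 fold changes of 0.34, 0.14 and 0.20 after glycerol and of 0.05, -0.0045 and 0.04 after BaCl2. Without SMA library 3, Lipa (0.51, limma adjusted p = 0.00734) and Ppt1 (0.25, limma adjusted p = 0.0397) were higher after glycerol and Asah1 did not pass.

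None of the 8 glycan hydrolases passed after either injury. Their log2 fold changes ran from 0.07 (Gusb) to 0.50 (Hexa) after glycerol and from -0.26 (Glb1) to 0.31 (Neu1) after BaCl2. Without SMA library 3, 5 of the 8 were higher after glycerol: Hexa (beta-hexosaminidase alpha, 0.65), Neu1 (neuraminidase, 0.58), Gla (alpha-galactosidase A, 0.47), Naglu (0.39) and Galns (0.28), the last 2 acting on glycosaminoglycans. Gusb (beta-glucuronidase, 0.13) did not pass. Glb1 (ENSMUSG00000045594), beta-galactosidase, had 5479.6, 5983, 5204 and 6029 normalized counts in the SMA libraries, against 4579, 5329, 4946 and 5345 normalized counts in the WT libraries after glycerol, a log2 fold change of 0.17 (SE 0.07, limma adjusted p = 0.189), or 0.21 (limma adjusted p = 0.0849) without SMA library 3, with overlap between the groups of 4. After BaCl2 it had 58.7, 65.3 and 66.8 CPM in the SMA libraries, against 71.6, 81.8 and 75.7 CPM in the WT libraries, every SMA library being lower, with a log2 fold change of -0.26 (SE 0.07, edgeR adjusted p = 0.0742). Gaa (ENSMUSG00000025579), acid alpha-glucosidase, which degrades glycogen, had 10492, 10993, 11172 and 11142 normalized counts in the SMA libraries, against 9709.9, 10239, 10102 and 10791 normalized counts in the WT libraries after glycerol, a log2 fold change of 0.10 (SE 0.05, limma adjusted p = 0.22), or 0.09 (limma adjusted p = 0.269) without SMA library 3. After BaCl2 it had 144, 155 and 163 CPM in the SMA libraries, against 168, 182 and 181 CPM in the WT libraries, again with every SMA library lower, and a log2 fold change of -0.20 (SE 0.07, edgeR adjusted p = 0.129).

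The membrane glycoproteins did not pass after either injury. Lamp2 (ENSMUSG00000016534), needed for fusion with autophagosomes and for chaperone-mediated autophagy, had 55289, 57603, 57911 and 55809 normalized counts in the SMA libraries, against 45664, 52639.8, 48601 and 52483 normalized counts in the WT libraries after glycerol. All SMA libraries were higher, with SMA library 3 the highest, and the log2 fold change was 0.19 (SE 0.06, limma adjusted p = 0.0926), or 0.18 (limma adjusted p = 0.0936) without it. After BaCl2 Lamp2 had 549.99, 601 and 619 CPM in the SMA libraries, against 624, 658 and 659.6 CPM in the WT libraries, every SMA library being lower, with a log2 fold change of -0.13 (SE 0.06, edgeR adjusted p = 0.284). Lamp1, its close relative, had log2 fold changes of 0.22 (SE 0.08, limma adjusted p = 0.143) after glycerol, or 0.30 (limma adjusted p = 0.0129) without SMA library 3, and 0.07 (SE 0.06, edgeR adjusted p = 0.585) after BaCl2. Grn, progranulin, a secreted protein that reaches the lysosome and is cut into granulins there, averaged 52255 ± 7828 normalized counts in SMA and 37581 ± 3336 in WT libraries after glycerol (SD, n = 4 each), separated but not passed at 0.47 (SE 0.11, limma adjusted p = 0.0562), or 0.56 (limma adjusted p = 0.0049) without SMA library 3. After BaCl2 it averaged 542 ± 18.3 CPM in SMA libraries and 491 ± 0.482 CPM in WT libraries (SD, n = 3 each), at 0.14 (SE 0.05, edgeR adjusted p = 0.196).

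Cln3 (ENSMUSG00000030720), a lysosomal membrane protein lost in juvenile Batten disease, had 17.3, 15.2 and 15.9 CPM in the SMA libraries, against 11.96, 11.9 and 12.4 CPM in the WT libraries after BaCl2, a log2 fold change of 0.41 (SE 0.08, edgeR adjusted p = 0.0209), with all SMA libraries higher. The call was lost without SMA library 2 or any WT library (adjusted p up to 0.103). With glycerol it had 1229.8, 1308, 856 and 1503 normalized counts in the SMA libraries, against 932, 793, 918 and 853 normalized counts in the WT libraries, a log2 fold change of 0.46 (SE 0.16, limma adjusted p = 0.126), or 0.62 (limma adjusted p = 0.00478) without SMA library 3. Cln3 shares 13.2% of its exon bases with Apobr on the opposite strand. Mcoln1, the calcium channel mucolipin 1, had log2 fold changes of 0.20 (SE 0.10, limma adjusted p = 0.271) after glycerol, or 0.26 (limma adjusted p = 0.133) without SMA library 3, and -0.0027 (SE 0.07, edgeR adjusted p = 0.991) after BaCl2. Tfeb itself had 680.4, 663, 483 and 691 normalized counts in the SMA libraries, against 501, 563, 482 and 401 normalized counts in the WT libraries after glycerol, at 0.37 (SE 0.14, limma adjusted p = 0.171), or 0.49 (limma adjusted p = 0.0334) without SMA library 3. After BaCl2 Tfeb had 10.9, 9.67 and 8.64 CPM in the SMA libraries, against 9.55, 9.83 and 9.88 CPM in the WT libraries, at -0.0041 (SE 0.10, edgeR adjusted p = 0.99).

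None of the 4 V-ATPase subunits passed after either injury. Atp6v0d2, the d2 subunit of the membrane sector, which osteoclasts and macrophages favour over d1, had the largest fold change among them and, in the WT libraries after both injuries, the lowest level per kb of all 34 genes. After glycerol it had 764, 709, 168 and 392 normalized counts in the SMA libraries, against 225, 177, 237 and 203 normalized counts in the WT libraries, with SMA library 3 the lowest of the 8, at 1.05 (SE 0.42, limma adjusted p = 0.176), or 1.505 (limma adjusted p = 0.0049) without it. After BaCl2 it had 3.26, 4.11 and 2.67 CPM in the SMA libraries, against 2.51, 1.31 and 1.92 CPM in the WT libraries, at 0.80 (SE 0.24, edgeR adjusted p = 0.101), with no overlap. It rested on 333, 559 and 345 counts in the SMA and 342, 152 and 254 counts in the WT libraries.

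The other 3 subunits are the ATP-cleaving subunit A (Atp6v1a), subunit B2 (Atp6v1b2) and the regulatory subunit H (Atp6v1h). After glycerol Atp6v1a had 19148, 21727, 14378 and 21085 normalized counts in the SMA libraries, against 15410.2, 15774, 15955 and 15640.4 normalized counts in the WT libraries. Atp6v1b2 had 12403, 13602, 10161 and 13814 normalized counts in the SMA libraries, against 11692, 10874, 11007 and 10835 normalized counts in the WT libraries. Atp6v1h had 5551, 5958, 4990.5 and 7366 normalized counts in the SMA libraries, against 5317, 4701, 5271 and 5735 normalized counts in the WT libraries. In all 3 SMA library 3 was below its SMA fellows and overlapped or lay below the WT libraries. Their log2 fold changes of 0.26, 0.16 and 0.17 did not pass. Without SMA library 3, Atp6v1a (0.39, limma adjusted p = 0.00251) and Atp6v1b2 (0.26, limma adjusted p = 0.0195) were higher and Atp6v1h did not pass. After BaCl2 Atp6v1a had 223, 202 and 173 CPM in the SMA libraries, against 173, 174 and 180.5 CPM in the WT libraries. Atp6v1b2 had 173, 157 and 134 CPM in the SMA libraries, against 133, 135 and 136 CPM in the WT libraries. Atp6v1h had 66.6, 59.4 and 55.9 CPM in the SMA libraries, against 48.3, 56.3 and 52.6 CPM in the WT libraries. The SMA and WT ranges overlapped for all 3, with log2 fold changes of 0.18, 0.20 and 0.21.

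**Figure D4:**
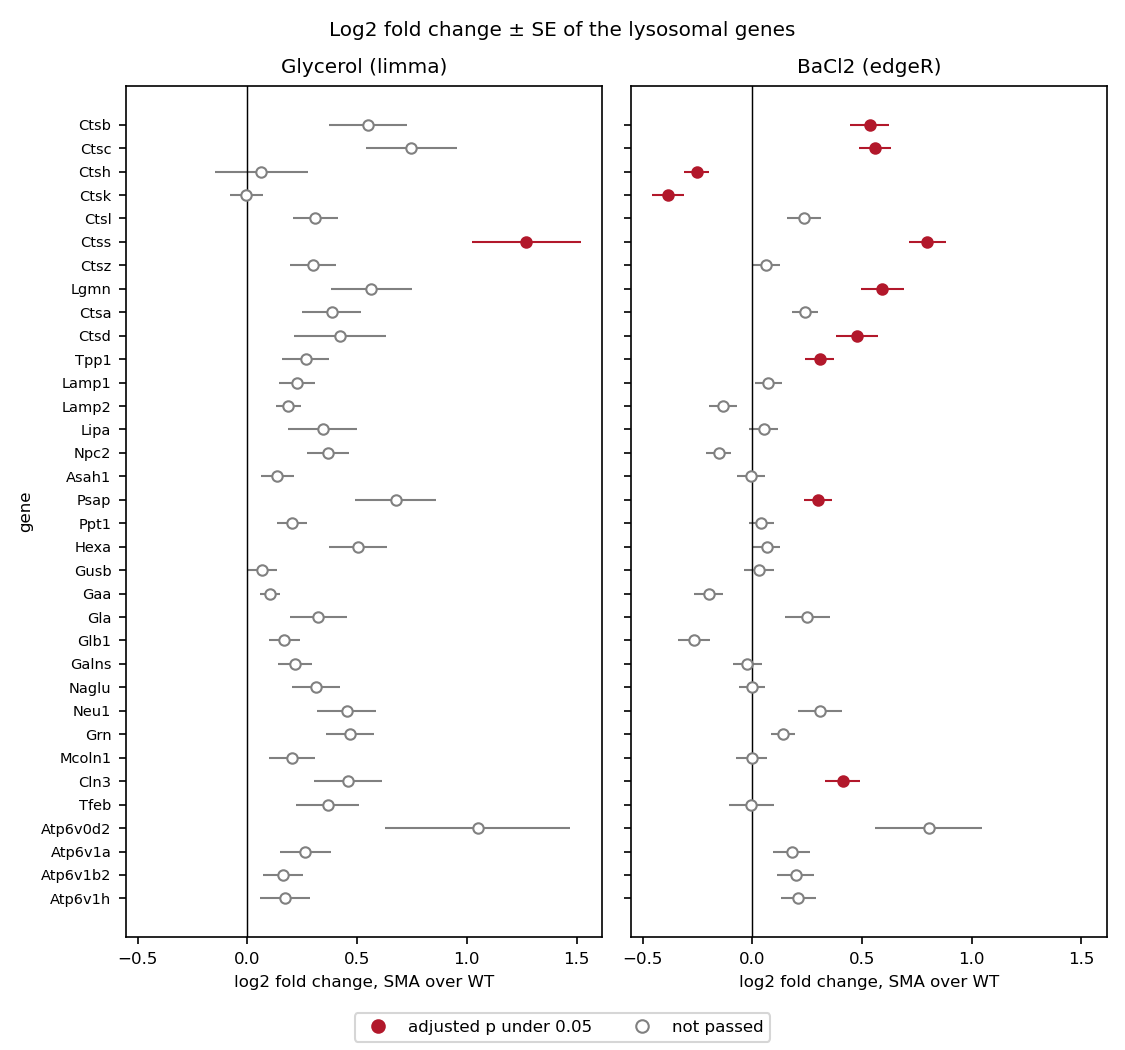
Log2 fold change of SMA over WT (points) with its SE (bars) for the 34 lysosomal genes after glycerol (limma, n = 4 each, left) and after BaCl2 (edgeR, n = 3 each, right), filled red where the adjusted p was under 0.05. After glycerol 33 of 34 points are right of 0 and 1 passes (Ctss), and after BaCl2 8 pass to the right and 2 (Ctsk and Ctsh) to the left.

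The SMA effect was compared across the injuries as the log2 fold change after glycerol minus that after BaCl2. It was higher after glycerol for 5 of the 34 genes, lower for 0, and did not pass for 29, where 1.88% of 13960 genes passed as higher and 1.92% as lower. At an unadjusted p under 0.05 there were 9 and 0 (11.4% and 10.1% of all genes). The 5 were Npc2 (0.52, SE 0.11, adjusted p = 0.0219), Glb1 (0.43, SE 0.10, adjusted p = 0.0246), Lamp2 (0.32, SE 0.08, adjusted p = 0.0401), Gaa (0.30, SE 0.08, adjusted p = 0.0446) and Ctsk (0.38, SE 0.10, adjusted p = 0.0497), by a t test of the difference of the limma and edgeR fold changes. For each of the 5 the BaCl2 SMA libraries were below the WT libraries. After glycerol they were above for Npc2 and Lamp2 and overlapped for Glb1, Gaa and Ctsk. Npc2 passed in 11 of the 14 fits with 1 library left out, failing without glycerol SMA library 2, WT library 1 or WT library 3 (adjusted p up to 0.0609). Glb1 passed in 8, failing without those 3 or BaCl2 SMA library 1, WT library 2 or WT library 3 (up to 0.0636). Lamp2 passed in 5 (up to 0.101), Gaa in 5 (up to 0.12) and Ctsk in 4 (up to 0.108), all 3 failing without the libraries that Glb1 failed without, among others. Ctsk also missed the threshold with RLE size factors (adjusted p = 0.0521). The count was 13 without glycerol SMA library 3, and 0 without glycerol SMA library 2, WT library 1 or WT library 3, where 482, 111, 129 and 93 of all genes were higher, against 262 with every library. The tables were normalized separately, and injury cannot be told apart from any batch. The difference for Ctss was 0.47 (SE 0.26, adjusted p = 0.326), which did not pass.

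By the promoter letters shown above, the 11 genes with TCACGTG had 3 higher (Lgmn, Cln3 and Ctsd) and 0 lower after BaCl2. Their median log2 fold change was 0.18 (range -0.26 to 0.59). The 16 genes with windows that lack it had 4 higher and 1 lower, with a median of 0.07 (-0.38 to 0.80). The 7 genes with no window had 1 higher and 1 lower, with a median of 0.20 (-0.25 to 0.80). After glycerol the medians were 0.31 with the letters, 0.35 without them and 0.17 with no window. Whether the letters bear on the fold changes was not tested.

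Genes of the same pathway outside the 34 are given as counts. Of 32 other hydrolases and activators, 0 of the 30 tested passed after glycerol, and after BaCl2 2 were higher, among them Gm2a (the GM2 activator, 0.40), and 1 lower, the peptidase Cpq (-0.44). Of the other V-ATPase genes, 0 of 17 passed after glycerol and 1 of 18 after BaCl2 (Atp6v1c1, 0.34). Of 29 other lysosomal membrane proteins and transporters, 1 was higher after glycerol (Laptm5, a membrane protein of blood cells, 1.06) and 6 after BaCl2, with Laptm5 (0.89), the peptide transporter Slc15a3 (0.78), the macrophage glycoprotein Cd68 (0.93) and Gpnmb (0.60) leading by p. Of the TFEB and mTORC1 genes, 0 of 21 passed after glycerol and 4 of 22 were higher after BaCl2, namely Fnip2 (0.71), the TFEB relatives Mitf (0.39) and Tfec (1.03), and Rptor (0.27). Sorting gave 0 of 24 after glycerol and 1 of 24 after BaCl2 (Sort1, 0.41), protease inhibitors 0 of 6 after glycerol and 1 of 7 after BaCl2 (Cst3, cystatin C, -0.26), and autophagy 0 of 23 after glycerol and 1 of 23 after BaCl2 (Wipi1, -0.31). All values are log2 fold changes, and the medians of the 7 lists ran from 0.07 to 0.17 after glycerol and from -0.08 to 0.10 after BaCl2. In the difference between injuries, glycerol minus BaCl2, 3 hydrolases (Cpq, 0.79; Naaa, 0.74; Ctso, 0.45), 2 inhibitors (Cst3, 0.57; Serpina3g, 0.87) and the autophagy gene Calcoco1 (0.49) passed as higher, and 0 genes of the 7 lists as lower. Without glycerol SMA library 3, the higher genes numbered 10 of 30 hydrolases, 6 of 17 V-ATPase genes, 10 of 29 membrane proteins, 3 of 21 TFEB and mTORC1 genes, 4 of 24 sorting genes, 1 of 6 inhibitors and 1 of 23 autophagy genes, where 7.54% of all genes were higher in that fit.

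In the authors' deposited tables, which carry their own fold changes and adjusted p-values, 14 of the 34 genes were called higher and 0 lower after glycerol (7.28% and 5.21% of the genes with an adjusted p there), and 13 were higher and 3 lower after BaCl2 (7.74% and 6.04%), at the same threshold of 0.05.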

How the data were processed

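RNA of sorted FAPs was sequenced in 14 libraries. Per the labels, RNA was extracted with RNeasy Micro columns and libraries were made from poly(A) RNA with a directional NEBNext Ultra II kit. The submitters' processing notes list fastp, Salmon, featureCounts and DESeq2 with no versions or roles, and what aligner, build or annotation was used is not given in the sources used here. BaCl2 values are whole read counts per gene as deposited. The glycerol values are the authors' normalized counts as deposited, a signal that is not whole. Taking each library's smallest positive value as the step, at most 49.6% of the low values lay on whole steps (tolerance 0.1). That smallest value need not be a read, so the check cannot decide whether reads could be recovered. Reads were not recovered, and depth is unknown. Log2 fold changes, p-values and adjusted p-values in both tables were made by the authors and are quoted only where named so. Another 6 columns of per-sample values in the BaCl2 table were not used.

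Each injury was fitted alone over its whole table in R 4.3.3, because the tables were normalized separately. BaCl2 counts received TMM factors (0.953 to 1.05), were filtered with filterByExpr and tested with the quasi-likelihood F test of edgeR 4.0.16. CPM is TMM-scaled counts per M. Glycerol values were tested with limma 3.58.1 with a trend on log2(value + 1), so their fold changes are on that scale. The difference between injuries was divided by its standard error, with Welch-Satterthwaite degrees of freedom. Adjustment was by Benjamini and Hochberg, with calls at an adjusted p under 0.05. Signs are SMA minus WT, and glycerol minus BaCl2. The steps were tested on simulated data. The alternatives were RLE factors, no filter, DESeq2 1.42.0, a pseudocount of 10, a mean of at least 100, quantile normalization, limma without trend, a z test, a replicate block and each library left out.

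The 34 genes, the gene lists and the markers were chosen with earlier results of these data known. Values per library are given for each gene called after either injury, for the cathepsins and V-ATPase subunits, and, chosen after their values were seen, for the genes whose effect differed between injuries and for Tfeb. From each other list of the pathway up to 4 called genes per direction are named by smallest p. A gene that this rule names is not reported here. Exon lengths and overlaps came from GENCODE vM21. Promoters came from RefSeq.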

Additional observations from a re-analysis of the deposited data

Results flagged for a closer look

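Within groups of 4 libraries, 68 groups (each gene in the SMA and in the WT libraries after glycerol) were checked for a library far from the other 3, and 4 groups held one, where chance gives about 1 in 20. Tfeb was at 482.9 normalized counts in SMA library 3, against 662.8 to 690.7 in the other SMA libraries. Ctsh was at 19450 in WT library 4, against 16010 to 16160 in the other WT libraries. Npc2 was at 27440 in WT library 1, against 32360 to 33370. Tpp1 was at 5918 in WT library 1, against 5417 to 5462.

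For 5 genes the SMA effect differed between the injuries by the test of the difference itself, glycerol minus BaCl2. On the log2 scale the differences were 0.518 for Npc2, 0.432 for Glb1, 0.377 for Ctsk, 0.321 for Lamp2 and 0.299 for Gaa. Each was lower in all SMA libraries after BaCl2, as were 13.1% of all genes, and Ctsk alone among them passed there. The 5 were chosen on these same values, so this is no separate support. Of 14 FAP markers, 5 passed as lower after BaCl2 and 0 passed after glycerol. In the test of the difference itself, 1 of 14 FAP markers passed, as higher (Dpt, 0.86). By that test 6 of 10 endothelial markers passed as lower, and 0 of 20 macrophage markers passed. The part of these markers in the differences was not tested.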

How the results depend on the processing

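The direction of the tested gene effects was not reversed for any called gene under any alternative run. After BaCl2 the 8 genes called higher were all called with RLE factors, DESeq2 (11 called), a replicate block (8) and no filter on low counts (13), and the count ran from 1 to 15 with 1 library left out. The 2 called lower ran from 0 to 3 with 1 library left out, and Glb1 joined them with no filter, with DESeq2 and with the block (3 each). Positive fold changes numbered 23, and 27 with RLE factors. After glycerol the 1 gene called higher became 2 with quantile normalization (Grn added), 0 with limma without trend and 3 with the replicate block (Grn and Ctsc added), and ran from 0 to 25 with 1 library left out. The number lower stayed at 0 throughout. The 5 genes that differed between injuries became 4 with RLE factors and 6 with a z test (Hexa added), stayed at 5 with the block, and ran from 0 to 13 with 1 library left out. The cause of these shifts was not tested. Correlations of the deviations of same-numbered libraries were -0.0998 to 0.0678 after BaCl2 and -0.0712 to 0.0714 after glycerol. Those of differently numbered SMA and WT libraries ran from -0.108 to 0.0864 and from -0.102 to 0.103. With so few libraries a group, these values cannot show whether the numbers pair the libraries.

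Over all genes, 549 higher and 314 lower after BaCl2 became 1084 and 783 with no filter and 1006 and 752 with DESeq2, and the block gave 480 lower. After glycerol 243 higher and 168 lower became 2 and 0 without trend, and the block gave 73 lower. With 1 library left out, higher genes ran from 34 to 902 after BaCl2, 0 to 1081 after glycerol and 93 to 573 in the difference between injuries. The depth after glycerol is unknown, and the 3 or 4 libraries a group limit the precision.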
